A study of Mus musculus with 28 samples.

Results

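Gad1, Gad2, Slc32a1 and Abat are the genes that carry γ-aminobutyric acid (GABA) through its life in a neuron: synthesis, loading into vesicles and breakdown. They were chosen by name for that role, with earlier results of these data known. All 4 were found among the 41549 genes of the deposited tables. The study placed adeno-associated virus (AAV) vectors for the nuclease Cas9, meant to lower a microRNA in the living rodent brain, in the motor cortex of 7 mice. Each animal received the vector AAV-Cas9-miR-124-empty in the left hemisphere and AAV-Cas9-miR-124-g4 in the right, called empty and g4 here. Every one of the 28 libraries thus came from tissue that held a Cas9 vector, and no library came from an uninjected side. Nuclei of the fixed tissue were stained for the HA tag carried by Cas9 and sorted, so that each vector gave 7 libraries of HA-positive and 7 of HA-negative nuclei, 4 groups in all. The labels give neither the strain, the age of the mice, the time after injection, the promoter of the vectors nor what g4 stands for. The vector and the hemisphere cannot be told apart in this design.

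GABA is the main inhibitory transmitter of the adult brain. Gad1 and Gad2 encode the glutamate decarboxylases GAD67 and GAD65, which make GABA from glutamate. GAD67 is spread through the cell and makes most of its GABA, while GAD65 is concentrated at nerve terminals. Slc32a1 encodes VGAT, the transporter that packs GABA and glycine into synaptic vesicles, and Abat encodes GABA transaminase, the mitochondrial enzyme that starts GABA breakdown. In the cortex Gad1, Gad2 and Slc32a1 mark inhibitory interneurons, and Abat is found in neurons and astrocytes. Striatal projection neurons, which lie below the cortex, also make GABA.

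Positions are those of the GENCODE annotation of GRCm38, the build named by the submitters' processing notes. Gad1 (ENSMUSG00000070880) lies at chr2:70553072-70602014, Gad2 (ENSMUSG00000026787) at chr2:22622205-22693874 and Slc32a1 (ENSMUSG00000037771) at chr2:158610767-158615748. Abat (ENSMUSG00000057880) lies at chr16:8513429-8621568. All 4 are on the plus strand. Counting by strand is not stated, so reads of overlapping genes could not be separated. Gad1os, antisense to Gad1, held 0 counts over the 28 libraries against 6149 for Gad1. Gm14205, antisense to Slc32a1, held 9 counts against 1550 for Slc32a1. The small RNA genes Mir3967 and Gm23636 inside Gad2 held 0 counts against 4541 for Gad2, and no annotated gene overlapped Abat.

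Promoters are shown because the 4 genes differed together between the sorted nuclei, for the 3 of them, Gad1, Gad2 and Slc32a1, that were matched in the table used; that of Abat was not used here. RefSeq's table (build GRCm38.p6) held windows from 250 bases before to 50 after the start for Gad1 (chr2:70561879-70562178), Gad2 (chr2:22622077-22622376) and Slc32a1 (chr2:158610508-158610807), all on the plus strand. RefSeq's start lies inside the GENCODE gene for Gad1 and Gad2. Capitals mark every match on either strand to any of 3 motifs. The first was TAATTA, the core bound by homeodomain factors such as those of the Dlx family. The second was the GC box, spelled GGGCGG, which is bound by Sp1 and related factors. The third was the TATA box, spelled TATAAA, which is bound by the general transcription machinery.
Gad1: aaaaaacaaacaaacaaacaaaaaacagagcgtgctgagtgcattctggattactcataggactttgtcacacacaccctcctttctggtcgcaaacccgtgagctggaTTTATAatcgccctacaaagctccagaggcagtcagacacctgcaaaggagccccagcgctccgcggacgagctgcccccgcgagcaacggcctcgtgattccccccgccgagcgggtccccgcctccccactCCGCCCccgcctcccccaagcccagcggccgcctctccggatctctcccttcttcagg
Gad2: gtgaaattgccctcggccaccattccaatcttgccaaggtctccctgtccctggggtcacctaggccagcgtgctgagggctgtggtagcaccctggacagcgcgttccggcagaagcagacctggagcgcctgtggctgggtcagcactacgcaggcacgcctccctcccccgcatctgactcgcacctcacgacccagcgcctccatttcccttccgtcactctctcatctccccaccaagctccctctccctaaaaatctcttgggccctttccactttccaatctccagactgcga
Slc32a1: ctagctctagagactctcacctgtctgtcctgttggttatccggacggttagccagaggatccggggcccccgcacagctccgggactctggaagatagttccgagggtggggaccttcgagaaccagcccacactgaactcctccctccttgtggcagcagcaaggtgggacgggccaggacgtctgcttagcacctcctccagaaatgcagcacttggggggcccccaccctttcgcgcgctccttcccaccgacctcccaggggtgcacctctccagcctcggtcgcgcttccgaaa
The Gad1 window held 1 GC box, 8 bases before the start, and 1 TATA box match, 141 bases before the start. Both were on the reverse strand, so the capitals show the reverse complement of each motif. The windows of Gad2 and Slc32a1 held none of these letters. Of 32851 RefSeq promoter windows of the same length, 35.7% held GGGCGG, 13.6% held TATAAA and 5.29% held TAATTA. GC content was 60% for Gad1, 61.3% for Gad2 and 63.3% for Slc32a1, against a median of 52.7% over all windows. A match in such a window is a description of the letters, not of a bound site.

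Libraries held 248612 to 902944 counts and 8687 to 13668 detected genes each. Of the HA-positive libraries, 3 with the empty vector (animals 17, 21 and 22) and 1 with g4 (animal 18) had under 10000 detected genes. Each member was counted in every library, with 39 to 471 counts for Gad1, 37 to 311 for Gad2, 26 to 143 for Abat and 9 to 119 for Slc32a1. The g4 HA-positive library of animal 19 stood apart. It held 591 counts of Xist, the RNA of the inactive X chromosome, where the other 3 libraries of that animal held 0. Its summed level of 10 oligodendrocyte markers was 1567 CPM (counts scaled to the library size) against 105 to 226 in the other 6 g4 HA-positive libraries. The sum of 19 inhibitory neuron markers was 1386 CPM there against 2092 to 2544. For Xist, animals 17, 18 and 20 held 0 counts in every library, and animals 21, 22 and 23 held 124 to 1012. Whether the g4 HA-positive library of animal 19 holds nuclei of another animal was not tested. The main edgeR tests and main ratio permutation tests of the 4 genes that include this library are given with and without it. Counts over animals and the paired sign-flip tests take it as animal 19, as labelled, and are given only with it.

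All 4 genes were higher in HA-positive than in HA-negative nuclei with either vector. Gad1 showed the largest difference of the 4, at 3.56-fold with the empty vector and 3.19-fold with g4, and Gad2 and Abat the smallest. Levels are CPM scaled by TMM factors, which correct for library composition. Gad1 ranged from 123 to 301 CPM (median 220) in empty HA-negative nuclei and from 558 to 1248 (median 619) in empty HA-positive nuclei. With g4 it ranged from 132 to 277 CPM (median 199) in HA-negative and from 426 to 950 (median 614) in HA-positive nuclei. The HA-positive and HA-negative libraries did not overlap with either vector. The log2 difference was 1.83 ± 0.18 (SE) with the empty vector, with 7 libraries in each group (edgeR quasi-likelihood test, Benjamini-Hochberg adjusted p = 8.15e-08). It was 1.67 ± 0.19 with g4 (edgeR adjusted p = 4.44e-06). Gad1 was 20th from the top among 5538 genes tested with the empty vector and 25th among 6264 with g4.

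**Figure D1:**
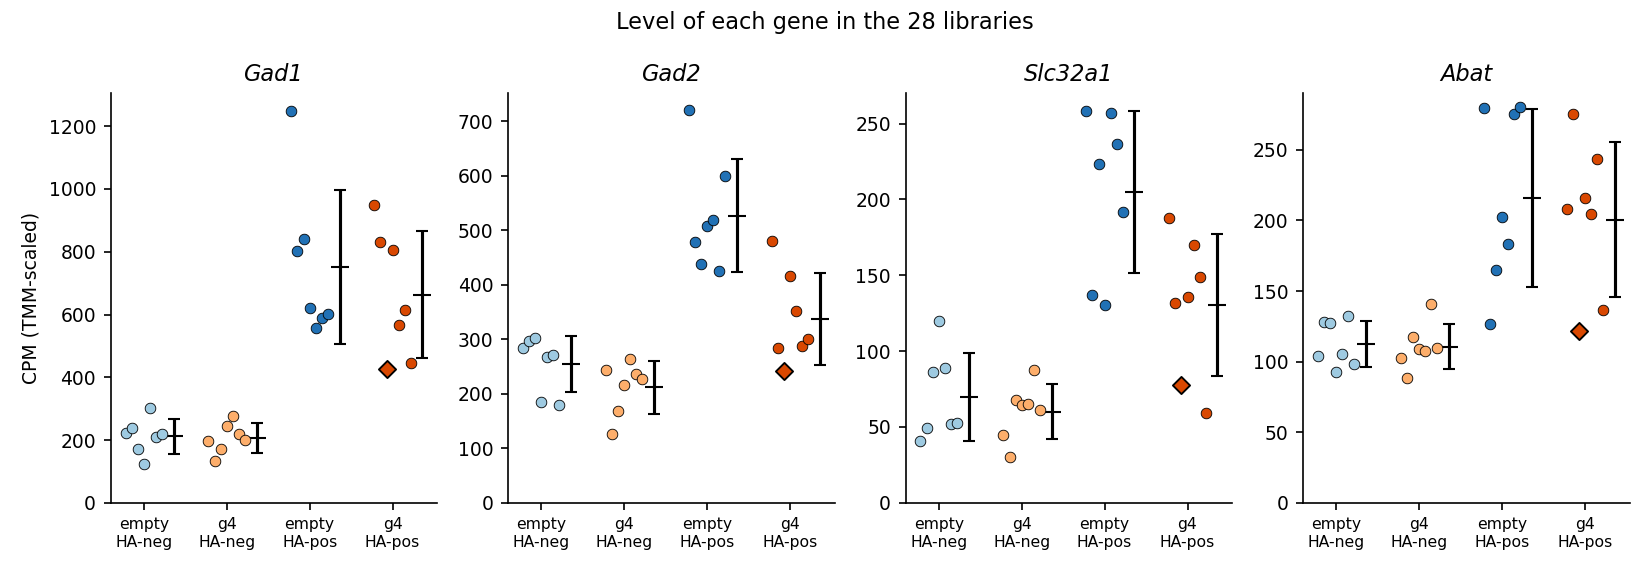
Level of Gad1, Gad2, Slc32a1 and Abat in each of the 28 libraries, in CPM scaled by TMM factors, with each group's 7 libraries in order of animal number and the mean ± SD beside them; the diamond is the g4 HA-positive library of animal 19. HA-positive libraries of Gad1 lie between 426 and 1248 CPM, all above the HA-negative ones, which lie between 123 and 301.

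Gad2 ranged from 180 to 302 CPM (median 270) in empty HA-negative and from 426 to 721 (median 507) in empty HA-positive nuclei, with no overlap. With g4 it ranged from 125 to 263 CPM (median 227) in HA-negative and from 242 to 480 (median 301) in HA-positive nuclei. Of the g4 HA-positive libraries, 6 of 7 lay above every g4 HA-negative library, and the library of animal 19 was the one that did not. The log2 difference was 1.06 ± 0.15 with the empty vector (edgeR adjusted p = 1.04e-05) and 0.66 ± 0.16 with g4 (edgeR adjusted p = 0.00731). These are 2.08-fold (95% interval 1.69 to 2.58) and 1.58-fold (1.27 to 1.98). Within animals the HA-positive library was the higher one in 7 of 7 with both vectors.

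Slc32a1, the vesicular transporter, ranged from 41.0 to 120 CPM (median 52.5) in empty HA-negative and from 130 to 258 (median 223) in empty HA-positive nuclei, with no overlap. With g4 it ranged from 30.5 to 87.5 CPM (median 64.3) in HA-negative and from 59.2 to 188 (median 136) in HA-positive nuclei. The g4 HA-positive libraries of animals 19 and 23 lay within the HA-negative range and the other 5 above it. The difference was 2.96-fold with the empty vector (log2 1.57 ± 0.24, edgeR adjusted p = 3.54e-05). It was 2.12-fold with g4 (log2 1.08 ± 0.23, edgeR adjusted p = 0.00282).

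Abat, the breakdown enzyme, ranged from 92.8 to 132 CPM (median 106) in empty HA-negative and from 126 to 280 (median 202) in empty HA-positive nuclei. The HA-positive library of animal 18 lay within the HA-negative range and the other 6 above it. With g4, Abat ranged from 88.1 to 141 CPM (median 109) in HA-negative and from 121 to 275 (median 208) in HA-positive nuclei, and 5 of 7 HA-positive libraries lay above all HA-negative ones. The difference was 1.93-fold with the empty vector (log2 0.95 ± 0.19, edgeR adjusted p = 0.00131) and 1.79-fold with g4 (log2 0.84 ± 0.17, edgeR adjusted p = 0.0017).

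All 4 genes were thus called higher (adjusted p under 0.05) in both comparisons, where 3.5% of the 5538 genes tested with the empty vector and 3.32% of the 6264 tested with g4 were called higher. HA-positive libraries lay above every HA-negative one for Gad1, Gad2 and Slc32a1 with the empty vector, against 1.25% of genes tested. With g4 this held for Gad1 alone of the 4, against 1.09% of genes tested. The median log2 difference of the 4 genes was 1.31 with the empty vector and 0.96 with g4, against 0.01 over all genes in each comparison. With animal 19's g4 HA-positive library left out, the g4 log2 differences were 1.76 for Gad1, 0.73 for Gad2, 1.18 for Slc32a1 and 0.93 for Abat, and all 4 were called. In sorted nuclei pooled for a library, a larger number of GABA neurons and more of these RNAs per neuron cannot be told apart.

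Markers of several cell types differed with the sort. Inhibitory neuron markers other than these 4 genes were higher too: 9 of 13 tested were called higher with the empty vector and 8 of 14 with g4, with 0 called lower in each. Sst and Npy, neuropeptides of interneurons, differed by log2 2.22 ± 0.19 and 2.12 ± 0.26 with the empty vector, and Pvalb, which encodes a calcium-binding protein of basket cells, by 2.82 ± 0.43. The sum of the 19 inhibitory markers in the tables ranged from 767 to 1078 CPM in empty HA-negative and from 2023 to 2733 in empty HA-positive nuclei. With g4 it ranged from 744 to 1096 CPM in HA-negative and from 1386 to 2544 in HA-positive nuclei (2092 to 2544 without the library of animal 19, where 10 of 14 tested were called higher). The marker lists were chosen with earlier results of these data known, and the same nuclei gave the counts of the 4 genes and of the markers.

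Oligodendrocyte, microglia and striatal genes went the opposite way. Over all genes, 194 of 5538 tested were called lower with the empty vector and 193 of 6264 with g4. Oligodendrocyte markers summed to 1247 to 2122 CPM in empty HA-negative and 52.2 to 127 in empty HA-positive nuclei, with Opalin at 0 in the latter, and 7 of 7 tested were called lower. Microglia markers summed to 266 to 598 CPM in empty HA-negative and 7.17 to 46.1 in empty HA-positive nuclei, with Cx3cr1, P2ry12, C1qa and Gpr34 at 0 in the latter, and 5 of 5 were called lower. With g4, the library of animal 19 included, 5 of 8 oligodendrocyte and 4 of 6 microglia markers tested were called lower. Genes of striatal projection neurons, the other GABA-making neurons near the dissected tissue, summed to 1179 to 2862 CPM in empty HA-negative and 267 to 482 in empty HA-positive nuclei. Of 8 tested, 7 were called lower, among them the dopamine receptor gene Drd1 and the phosphodiesterase gene Pde10a. With g4 this list summed to 434 to 2238 CPM in HA-negative and 305 to 886 in HA-positive nuclei (305 to 396 without the library of animal 19), and 7 of 9 were called lower. Glutamatergic markers had 1 of 10 tested called lower with the empty vector (median log2 -0.53) and 1 of 11 with g4 (median -0.22). The gene was Foxp2 each time. Astrocyte markers had 1 of 6 called lower with the empty vector (median -0.36) and 0 of 6 with g4 (median 0.24). Neither list had a gene called higher. The part that these shifts in cell types had in the levels of the 4 genes was not tested.

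In HA-positive nuclei, where Cas9 was detected, none of the 4 genes was called different between g4 and empty. The call rate in this comparison was 0.0599% of 5011 genes (3 genes by edgeR; 335 genes at an unadjusted p under 0.05; 5 genes by DESeq2, with 0 of the 4 among them). The fitted value was below 0 for all 4 genes, and further from 0 for Gad2 and Slc32a1 than for Gad1 and Abat. Their 95% intervals overlapped, and no ratio of 2 of these genes passed its test between the vectors (below). Gad2 had a mean of 527 ± 103 CPM (SD, n = 7) with empty and 337 ± 84.3 with g4. It was the lower with g4 in 7 of 7 animals, and 6 of 7 g4 libraries lay below every empty library. How many of the 5011 genes showed such patterns was not counted, so counts of animals and libraries in this comparison are descriptions. The log2 difference of Gad2 was -0.66 ± 0.16, a ratio of 0.634 (95% interval 0.508 to 0.792; edgeR adjusted p = 0.162). Over the alternatives run, the adjusted p of Gad2 ranged from 0.059 to 0.65 and its log2 difference from -0.73 to -0.47. It was -0.59 ± 0.16 without the library of animal 19 (edgeR adjusted p = 0.211).

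Slc32a1 had a mean of 205 ± 53.5 CPM with empty and 130 ± 46.7 with g4 in HA-positive nuclei (SD, n = 7) and was the lower with g4 in 6 of 7 animals. Its log2 difference was -0.66 ± 0.23, a ratio of 0.631 (0.455 to 0.874; edgeR adjusted p = 0.619). It was -0.56 ± 0.23 without the library of animal 19 (edgeR adjusted p = 0.763). Without the HA-positive libraries under 10000 detected genes it was -0.37 ± 0.27, and without those and the g4 library of animal 19 it was -0.26 ± 0.25. Gad1 differed by -0.20 ± 0.19 (adjusted p = 0.902), with the g4 library lower in 3 of 7 animals and higher in 4. Abat differed by -0.12 ± 0.21 (adjusted p = 0.955), lower in 4 animals and higher in 3. Without the library of animal 19 these 2 values were -0.11 ± 0.19 and -0.03 ± 0.20. The 95% intervals of the g4 to empty ratio were 0.661 to 1.15 for Gad1 and 0.686 to 1.23 for Abat. In the same nuclei the fitted value was below 0 for 10 of 14 inhibitory neuron markers tested (median log2 -0.27, or -0.17 without the library of animal 19), and 0 were called. It was above 0 for 7 of 9 glutamatergic markers (median 0.26), and 0 were called. The 10 astrocyte markers summed to 678 to 1441 CPM (median 800) with empty and 981 to 2761 (median 1483) with g4. None of them was at 0 in either group, and 0 of 6 tested were called. The part of these cell types in the differences of the 4 genes was not tested.

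**Figure D2:**
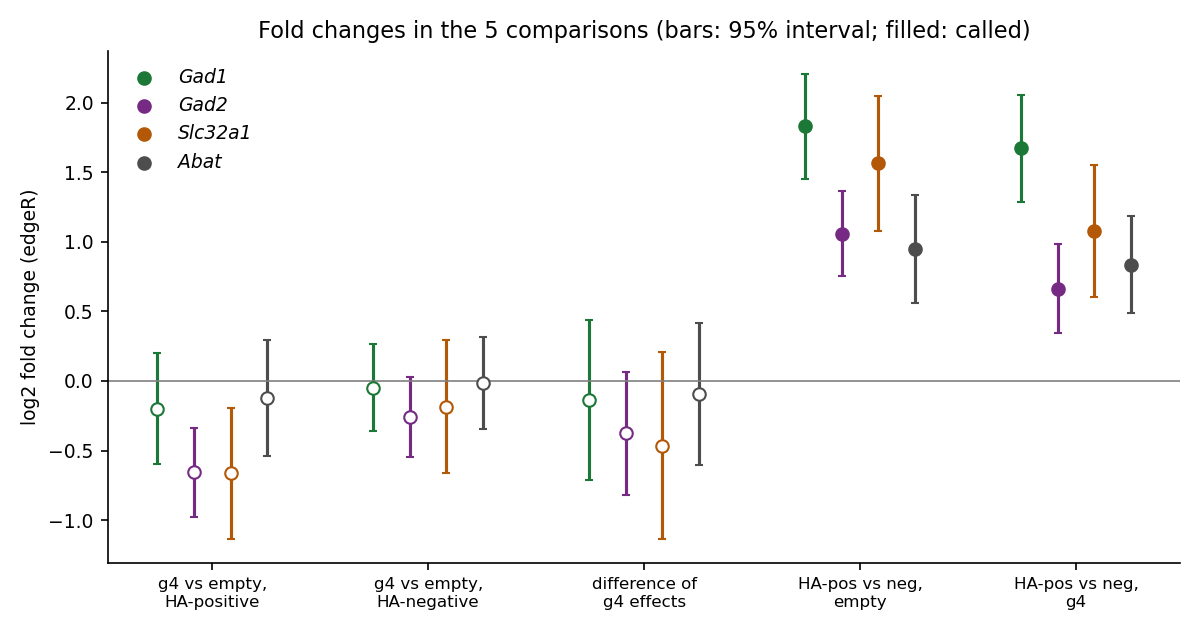
Log2 fold changes of the 4 genes in the 5 comparisons, fitted with edgeR; bars are 95% intervals, filled points have an adjusted p under 0.05 and open points do not. The 8 points for HA-positive against HA-negative nuclei lie between 0.66 and 1.83 and are filled, and the 12 others are open and lie between -0.66 and -0.02.

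In HA-negative nuclei the 4 genes were nearer to equal between the vectors, and 0 of 4 were called, against 0% of 6262 genes (0 genes by edgeR, 236 at an unadjusted p under 0.05, and 1 gene by DESeq2). Gad2 had 255 ± 51.2 CPM with empty and 211 ± 48.0 with g4 (log2 -0.26 ± 0.14; edgeR adjusted p = 0.999), and was lower with g4 in 5 of 7 animals. Slc32a1 had 69.9 ± 29.0 and 60.1 ± 18.1 CPM, Gad1 had 212 ± 55.5 and 206 ± 47.2 CPM, and Abat had 113 ± 16.1 and 111 ± 16.0 CPM (SD, n = 7). Their log2 differences were -0.18 ± 0.24, -0.05 ± 0.15 and -0.02 ± 0.16. The g4 HA-negative libraries of animals 18 and 17 held the lowest striatal sums, 434 and 565 CPM, and the library of animal 18 also held the lowest level of each of the 4 genes in its group.

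Whether the g4 difference itself was unlike in HA-positive and HA-negative nuclei was tested in 1 model over all 28 libraries. The difference of differences was -0.46 ± 0.34 for Slc32a1, -0.38 ± 0.22 for Gad2, -0.14 ± 0.28 for Gad1 and -0.09 ± 0.26 for Abat on the log2 scale. None was called (adjusted p 0.996 to 0.998), against 0% of 7197 genes (0 genes by edgeR, 359 at an unadjusted p under 0.05, and 0 by DESeq2). The 95% interval for Gad2 ran from -0.82 to 0.07 and that for Slc32a1 from -1.14 to 0.21, both including 0. With animal 19's g4 HA-positive library left out, the 4 values were -0.38 for Slc32a1, -0.32 for Gad2, -0.07 for Gad1 and -0.01 for Abat, and none was called.

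The ratio of the 2 decarboxylase genes differed with the sort in tests that took the libraries as unpaired. It did not pass in paired tests, which the number of animals limits (below). The ratio of Gad1 to Gad2 counts within a library needs no scaling and was compared with exact two-sided permutation tests. Over the 6 pairs of genes and 4 two-group comparisons, 24 tests were adjusted together (Benjamini-Hochberg). Gad1 held 0.566 to 1.23 counts per Gad2 count (median 0.781) in empty HA-negative and 1.01 to 1.92 (median 1.39) in empty HA-positive nuclei. With g4 it held 0.802 to 1.13 (median 1.02) in HA-negative and 1.48 to 2.92 (median 1.93) in HA-positive nuclei, with no overlap. The log2 ratio was higher in HA-positive nuclei by 0.76 with the empty vector (exact p = 0.00524, adjusted 0.0315; higher in 5 of 7 animals). With g4 it was higher by 0.99 (exact p = 0.000583, the smallest this design can give, adjusted 0.014; higher in 7 of 7 animals).

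**Figure D3:**
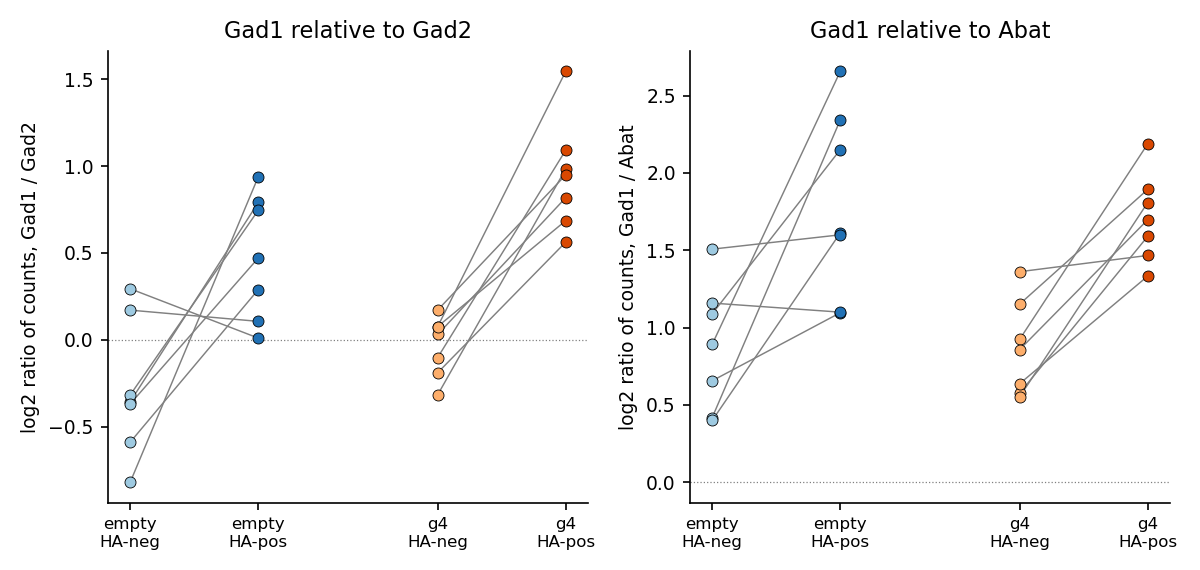
Log2 ratio of Gad1 to Gad2 counts (left) and of Gad1 to Abat counts (right) in each library, with lines joining the HA-negative and HA-positive library of the same animal and vector. With g4 the line rises in 7 of 7 animals in both panels, and with empty in 5 of 7 for Gad2 and 6 of 7 for Abat.

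Gad1 also gained on Abat between HA-negative and HA-positive nuclei, by log2 0.92 with the empty vector (exact permutation p = 0.00524, adjusted 0.0315; 6 of 7 animals) and 0.85 with g4 (exact p = 0.00117, adjusted 0.014; 7 of 7 animals). These 4 of the 24 tests passed. With animal 19's g4 HA-positive library left out, the 2 g4 values were 1.01 and 0.83, and 4 of 24 again passed. With the animals paired, in a sign-flip test of the 7 within-animal differences, 0 of 24 passed. Gad1 to Gad2 then had exact p = 0.0625 with the empty vector (adjusted 0.167) and 0.0156 with g4 (adjusted 0.0938), and Gad1 to Abat 0.0312 (adjusted 0.107) and 0.0156 (adjusted 0.0938). The smallest p this test can give is 0.0156, which the g4 pairs reached and the empty-vector pairs did not. With 24 tests adjusted together, 8 tests at that p were needed for any of them to pass. The 0 of 24 therefore cannot tell an absent difference from too few animals. Between the vectors in HA-positive nuclei, the ratio of Gad1 to Gad2 was higher with g4 by log2 0.47 (exact p = 0.0245, adjusted 0.0839; 6 of 7 animals). The ratio of Slc32a1 to Abat was lower with g4 by log2 0.60, at -0.60 (exact p = 0.0169, adjusted 0.0676; lower in 7 of 7 animals), and neither passed. Without the library of animal 19 they were 0.49 and -0.60 (adjusted p = 0.103 for both, exact permutation test).

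Levels can be set between genes only per length of transcript, here CPM per kilobase of merged annotated exons. In empty HA-positive nuclei Gad1 had 98.4 ± 32.1, Gad2 89.6 ± 17.6, Slc32a1 73.2 ± 19.1 and Abat 27.9 ± 8.11 CPM per kilobase (SD, n = 7). The first 3 were within 1 SD of their neighbours, and Abat was below them by more than that. In empty HA-negative nuclei Gad2 led with 43.4 ± 8.71, followed by Gad1 with 27.7 ± 7.27, Slc32a1 with 25.0 ± 10.4 and Abat with 14.5 ± 2.08. The place of Gad1 rests on its length, since its merged exons (7.639 kb) are longer than its longest protein-coding transcript (3.355 kb). Per kilobase of that transcript Gad1 had 224 in empty HA-positive and 63.2 in empty HA-negative nuclei, above Gad2 with 91.7 and 44.4. With g4, merged exons gave 86.7 for Gad1, 57.4 for Gad2, 46.5 for Slc32a1 and 25.9 for Abat in HA-positive nuclei.

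Other genes of the same pathway were called less widely than the 4 members. The list held 19 genes of GABA uptake, breakdown, receptors and glutamate supply, of which 10 could be tested with the empty vector and 11 with g4. Of these, 2 were called higher and 1 lower in HA-positive nuclei with the empty vector, and 0 higher and 1 lower with g4 (1 higher and 1 lower without the library of animal 19). Over all genes, 194 were called higher and 194 lower of 5538 tested with the empty vector. With g4, 208 were called higher and 193 lower of 6264. The median log2 difference of the listed genes tested was 0.39 with the empty vector and 0.20 with g4, against 0.01 over all genes.

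Slc38a1, a glutamine transporter of neurons, was higher by log2 0.90 ± 0.15 with the empty vector (edgeR adjusted p = 0.000124). With g4 it differed by 0.45 ± 0.16 (adjusted p = 0.0865), and by 0.51 ± 0.16 without the library of animal 19 (adjusted p = 0.035). Gabbr2, a subunit of the GABA-B receptor, was higher by 0.56 ± 0.14 with the empty vector (adjusted p = 0.0077) and differed by 0.32 ± 0.14 with g4 (adjusted p = 0.219). Glul, which encodes glutamine synthetase, was the gene called lower, and it was lower in 7 of 7 animals with each vector. Its log2 difference was -0.90 ± 0.26 with the empty vector (edgeR adjusted p = 0.0275) and -0.77 ± 0.16 with g4 (edgeR adjusted p = 0.00249). The empty-vector call of Glul was lost without the HA-positive libraries under 10000 detected genes (adjusted p = 0.0615). Aldh5a1, which encodes the next enzyme of GABA breakdown after Abat, differed by 0.73 ± 0.28 with the empty vector (adjusted p = 0.134) and 0.31 ± 0.32 with g4 (adjusted p = 0.708). Slc6a11, the astrocytic GABA transporter GAT3, had means of 10.2 to 19.0 CPM over the 4 groups and 0 to 31 counts per library.

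**Figure D4:**
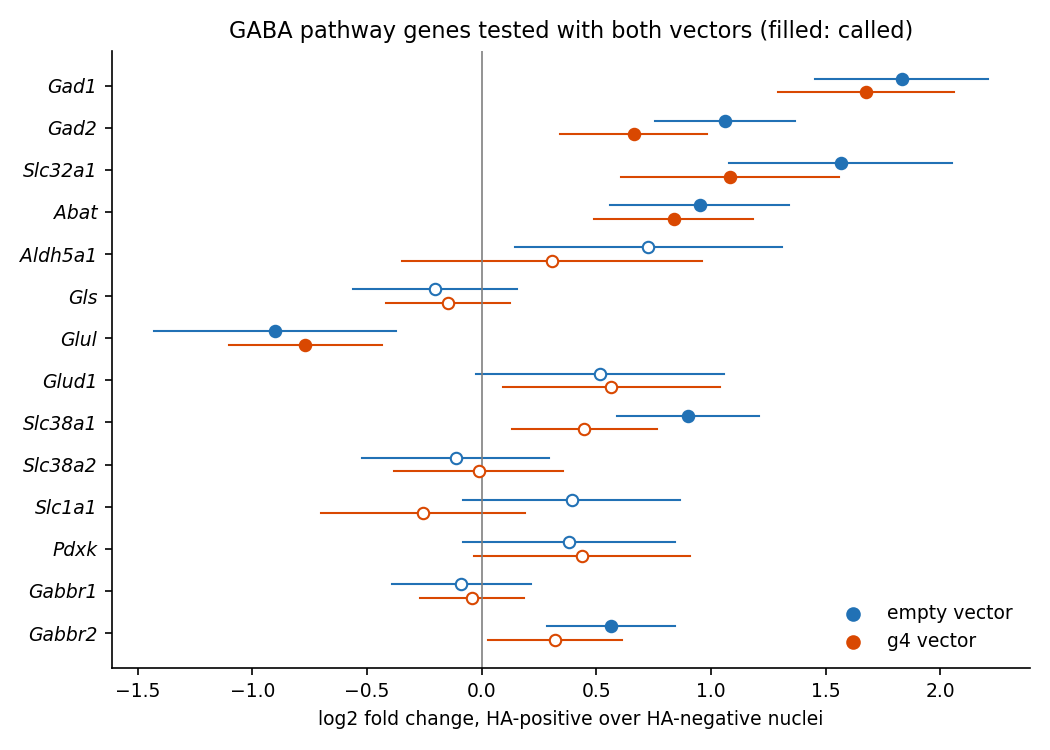
Log2 fold change of HA-positive over HA-negative nuclei for the 4 genes and the listed GABA pathway genes tested with both vectors; bars are 95% intervals from edgeR, and filled points have an adjusted p under 0.05. Gad1, Gad2, Slc32a1 and Abat are filled on the right with both vectors, and Glul is filled on the left with both.

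Between the vectors, 0 of 10 of these genes were called in HA-positive nuclei and 0 of 10 in HA-negative nuclei. Aldh5a1 had 75.4 ± 21.7 CPM with empty and 47.8 ± 14.4 with g4 in HA-positive nuclei (SD, n = 7), lower with g4 in 7 of 7 animals (log2 -0.67 ± 0.30; edgeR adjusted p = 0.73). How many of all genes were lower in every animal was not counted. Without the HA-positive libraries under 10000 genes, the difference of Aldh5a1 was -0.86 ± 0.30. The median of the 10 in HA-positive nuclei was -0.17, against -0.01 over all genes, and the HA-positive libraries with empty enter both the vector and the sort comparison.

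The genes whose log2 CPM was most like that of each member over the 28 libraries were sought among 5973 genes with a mean of at least 20 CPM. For Gad1 the 3 nearest included Erbb4 (Pearson r = 0.94), a receptor of interneurons, and Bcat1 (0.92), a branched-chain transaminase. For Gad2 they were Man1c1 (0.84), Gad1 (0.83) and Syt2 (0.83), for Slc32a1 Mdh1 (0.86), Syt2 (0.85) and Btbd3 (0.82), and for Abat Minar1 (0.84), Ubash3b (0.83) and Rab3b (0.83). Such an r takes in the step between the sort gates as well as differences within them, and it is given as a description. The part of each was not tested.

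After each group's mean was taken out, the likeness of the members to each other was weaker and uneven. Gad1 and Gad2 kept r = 0.63, and 16 of the 5973 genes were nearer to Gad1. Slc32a1 and Abat had 0.49, Gad2 and Abat 0.44, Gad1 and Abat 0.37, Gad2 and Slc32a1 0.31, and Gad1 and Slc32a1 0.29. The nearest genes were then AI593442 (0.75), Iars (0.70) and Erbb4 (0.70) for Gad1, and Pptc7 (0.71), Brd1 (0.67) and Hspd1 (0.66) for Gad2. For Slc32a1 they were Glud1 (0.75), the glutamate dehydrogenase gene, Ipo9 (0.65) and Agpat5 (0.64), and for Abat Plxna1 (0.71), Brox (0.63) and Cldnd1 (0.63). Only Erbb4, for Gad1, was among the 3 nearest genes by both measures. These values come from 28 libraries of 7 animals, and depth differed between the libraries.

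The vectors are named for miR-124, and the members were searched for its sites. The longest annotated 3′ untranslated regions measured 1218 bases for Gad1, 3528 for Gad2, 744 for Slc32a1 and 2942 for Abat, against a median of 961 over 21007 genes. None of the 4 held a match to GTGCCTT, the site that pairs with the whole miR-124 seed. A match to the site shifted by 1 base towards the 5′ end of the microRNA, written TGCCTTA, was also found in none of them. Of the 21007 genes, 19.7% held at least 1 of these sites, so most genes held none either. The absence of these letters says nothing of indirect effects or of other kinds of site.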

How the data were processed

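The authors deposited raw counts per gene for sorted nuclei of mouse motor cortex, 1 column per library, per the labels. Per the submitters' processing notes the build was GRCm38; the sources used here do not give the aligner, counting program or strand setting. The tables had 41550 entries, and the 1 that names no gene was dropped. Cells holding NA were read as 0, and 41474 identifiers matched GENCODE release 21. Per the labels' protocols the libraries came from picogram amounts of RNA of fixed nuclei, and totals of 248612 to 902944 counts limit the precision of low genes. Groups and animal numbers come from the sample titles, and the sample descriptions tie each sample to its column. For 3 animals, titled 21, 22 and 23, the column names carry 22, 23 and 24; the numbers here are those of the titles.

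Counts were tested with the two-sided quasi-likelihood test of edgeR 4.0.16 (R 4.3.3), with a robust fit, TMM scaling and low counts removed by filterByExpr. Calls needed an adjusted p (Benjamini-Hochberg, over all genes tested) under 0.05, and each sentence's adjusted p for a single gene comes from this test unless another is named. CPM were computed from the counts with TMM factors over all 28 libraries. Log2 ratios of 2 members (0.5 added to each count) were compared with exact permutation tests over 3432 arrangements. The alternatives were DESeq2 1.42.0, RLE factors, no filter on low counts, ribosomal and mitochondrial genes left out, an animal block, 1 fit of all libraries and libraries left out. The fits were tested on simulated data.

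The members and gene lists were chosen with earlier results of these data known. The text names the 4 members, every listed GABA pathway gene that was called, Slc6a11 and Aldh5a1, counts of the marker lists with some of their called genes, and for each member the 3 most like genes by each measure; 1 gene of the pathway list and 1 of the most like genes are not reported here. The same animal number in several groups means the same animal, per the labels, so the samples are paired by source. The Xist counts of animal 19's g4 HA-positive library were unlike those of its other libraries, so its pairing is in doubt. Deviations of same-animal libraries from their group means correlated weakly (median r 0.01 to 0.06 over the 4 two-group comparisons).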

Additional observations from a re-analysis of the deposited data

Results flagged for a closer look

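In 1 of 16 sets of 7 libraries (4 genes in 4 groups), a single library lay far from the others. Gad1 was 1248 CPM in the empty HA-positive library of animal 17, and the next highest library of that group was 840 CPM. The gap was 0.591 of the group's whole range, above Dixon's 95% critical value for 7 samples. Chance flags about 5% of such sets. That library held 331697 counts and 9275 detected genes, and its Gad2, at 721 CPM, and Slc32a1, at 258 CPM, were also the highest of the group. Without animal 17 in either group, Gad1 was higher in HA-positive nuclei with the empty vector by log2 1.66 ± 0.17 (edgeR adjusted p = 2.14e-07).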

How the results depend on the processing

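The number of the 4 genes called was 4 with either vector between HA-positive and HA-negative nuclei, and 0 between the vectors and in the difference of differences, under every alternative run. With the animal as a replicate block this also held, while the number of all genes called between the vectors in HA-positive nuclei went from 3 to 1. The ratio tests that passed went from 4 to 0 under the paired sign flips, where 8 tests at the smallest possible p were needed to pass. The block changed no other call of the 4 genes. The 3 genes called between the vectors in HA-positive nuclei became 5 with DESeq2, 28 with no filter on low counts, 5 without the g4 library of animal 19, 0 without the HA-positive libraries under 10000 detected genes, 8 with 1 fit of all 28 libraries, and 1 to 4 when each animal was left out in turn, with 1 without animal 18. In HA-negative nuclei 0 became 1 with DESeq2, and for the difference of differences 0 became 3 with no filter. Between HA-positive and HA-negative nuclei with the empty vector, 388 genes became 664 with DESeq2, 661 with no filter and 612 with 1 fit of all libraries, and 251 (without animal 19) to 371 with an animal left out. With g4, 401 genes became 218 to 422 with an animal left out, the lower end without animal 20, with 224 without animal 21 and 241 without animal 22. The ratio of Gad1 to Slc32a1 between g4 HA-positive and HA-negative nuclei passed with 2 counts added (log2 0.62, exact permutation, adjusted p = 0.0392) and not with 0.5 (0.59, adjusted p = 0.0587).

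Values near 0 changed sign under some alternatives. Abat between the vectors in HA-positive nuclei was 0.066 without the HA-positive libraries under 10000 genes and animal 19's g4 library, an alternative chosen after seeing the data, and -0.32 to 0.020 with an animal left out. In HA-negative nuclei, leaving out an animal gave -0.18 to 0.056 for Gad1 and -0.047 to 0.058 for Abat, with Abat at 0.00064 without animal 19. The difference of differences of Abat was 0.091 under that added alternative and -0.38 to 0.065 with an animal left out. The causes were not tested. Per kilobase of the longest coding transcript, also an alternative chosen after seeing the data, Gad1 stood above Gad2 in every group. Slc32a1, with as few as 9 counts in a library, is the member that depth limits most.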
